A study of Mus musculus with 8 samples.

Results

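The 8 genes of the epidermal barrier and its defence were followed in pigment cells sorted from mouse skin: the beta-defensin Defb6, the chloride channel accessory gene Clca3a2, the annexin Anxa8, the secreted suprabasal products Krtdap, Sbsn and Dmkn, and the envelope proteins Lor and Ivl. They are 8 of the 22180 genes that the platform annotation names from a single symbol, and each had 1 probe set. Defb6, Clca3a2 and Anxa8 were chosen by their measured rise from 4 to 21 days in wild-type cells, so the change of all 8 with age is given as a description, without a test. The other 5 were added as companions of the same tissue function.

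The cells came from whole skin, dissociated with collagenase and dispase, and were sorted for green fluorescence and absence of p75. All mice carried Tyr::Cre, a recombinase under the tyrosinase promoter, which is active in the pigment lineage, and the Z/EG reporter, which switches on green fluorescent protein after recombination, on a background that the labels call mixed. P4_WT holds 2 arrays of melanoblasts, the precursors of pigment cells, from 4-day-old mice with wild-type alleles of B-raf and of the other gene that is floxed in the mutants. P21_WT holds 2 arrays of melanocyte stem cells from 21-day-old mice of the same genotype. P21_KO holds 4 arrays of the same cell class at 21 days from mice with B-raf fl/fl that were also fl/fl at that other gene. The transgenes came from C57Bl/6 stock and the floxed alleles from stock of another strain, so strain of origin near the floxed genes and genotype cannot be told apart. The labels call the arrays biological replicates, and 3 of the 4 P21_KO arrays (replicates 2, 3 and 4) share a label number of unstated meaning. If these are not separate animals, p-values measure only the spread between these samples.

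The surface of the epidermis is a layer of dead, flattened keratinocytes. As keratinocytes leave the basal layer they make keratins and secreted proteins, then assemble the cornified envelope, a shell of crosslinked proteins under the membrane in which involucrin is an early scaffold and loricrin the bulk component. Beta-defensins are small secreted antimicrobial peptides of epithelia. Pigment cells sit among basal keratinocytes and hair follicle keratinocytes and are not known as a site of envelope assembly.

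Windows around the start sites were read because Krtdap, Sbsn and Dmkn lie side by side in the genome. Among the 8 genes they were also the closest in pattern across the arrays. All 8 genes were found in a table of RefSeq promoters on assembly GRCm38.p6, with 10 windows in all because Dmkn has 3 listed starts. Each window covers 250 bases before and 50 bases after a start. The sequence TGANTCA, with any base at N, is a loose pattern for the sites bound by AP-1 factors of the Fos and Jun families. The pattern occurred in 8 of the 10 windows, from 6 of the 8 genes. It occurred in 7.81% of all 32851 promoter windows, and 8.97% of 27025 genes had it in at least 1 window. The pattern reads the same on both strands. Its middle base is T in the Clca3a2 match and A in the first Sbsn match, and G or C in the other matches printed below. Below are 150 bases before and 10 bases after the start of the 6 genes that hold it, 5′ to 3′ along the transcribed strand, with AP-1 letters and the TATA box letters TATAAA in capitals; they are shown because these letters are what the 6 genes have in common. Clca3a2 is at chr3:144819485-144819644 on the minus strand, Krtdap at chr7:30787755-30787914 on the plus strand, Sbsn at chr7:30751321-30751480 on the plus strand, the first listed start of Dmkn at chr7:30763606-30763765 on the plus strand, Lor at chr3:92083133-92083292 on the minus strand and Ivl at chr3:92573726-92573885 on the minus strand.
Clca3a2: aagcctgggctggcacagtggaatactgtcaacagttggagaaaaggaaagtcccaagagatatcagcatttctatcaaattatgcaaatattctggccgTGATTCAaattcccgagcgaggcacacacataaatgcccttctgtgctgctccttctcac
Krtdap: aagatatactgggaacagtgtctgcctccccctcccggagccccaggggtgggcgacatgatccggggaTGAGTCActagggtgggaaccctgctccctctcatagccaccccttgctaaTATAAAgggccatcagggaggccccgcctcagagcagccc
Sbsn: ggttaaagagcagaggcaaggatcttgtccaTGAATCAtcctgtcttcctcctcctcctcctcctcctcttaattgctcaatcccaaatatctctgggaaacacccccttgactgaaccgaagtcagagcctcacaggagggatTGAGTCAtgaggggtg
Dmkn: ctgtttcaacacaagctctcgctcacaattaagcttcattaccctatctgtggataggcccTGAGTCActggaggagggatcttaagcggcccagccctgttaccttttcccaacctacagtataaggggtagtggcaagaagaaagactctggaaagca
Lor: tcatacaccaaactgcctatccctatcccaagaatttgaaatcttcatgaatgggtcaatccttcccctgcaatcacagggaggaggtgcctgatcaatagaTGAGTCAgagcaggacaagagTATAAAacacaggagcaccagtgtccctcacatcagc
Ivl: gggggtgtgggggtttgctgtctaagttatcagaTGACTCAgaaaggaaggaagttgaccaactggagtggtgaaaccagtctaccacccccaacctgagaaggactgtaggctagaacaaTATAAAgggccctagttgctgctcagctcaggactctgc

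The AP-1 letters began 50 bases before the start of Clca3a2, 81 before that of Krtdap, 48 before that of Lor and 116 before that of Ivl. Sbsn held them at 119 and at 6 bases before its start. The 3 Dmkn windows held them at 89, 91 and 82 bases, of which the first and second overlap and show the same site. TATAAA was found in the windows of Krtdap, Lor and Ivl, at 30, 27 and 29 bases before the start, against 13.6% of all windows. The windows of Defb6 and Anxa8, with ranks of 1 and 3 among the 8 in change with age, held neither sequence. The search took exact letters only, so near spellings, such as TATAAG in the Defb6 window and the printed Dmkn window, were not counted. Of the other letters searched on both strands, the C/EBP half-site pair TTGCNNAA was in 6 windows of 4 genes (10.8% of all windows), the MITF-type E-box CATGTG in 1, that of Ivl (14.2%), and the grainyhead letters AACCNGTT in 0 (2.09%). The AP-1 letters were thus present both in genes that were higher at 21 days, such as Clca3a2 and Krtdap, and in Lor and Ivl, which were not. A match describes the letters and is not a site shown to be bound.

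Defb6 read near the floor at 4 days and high at 21 days. Values here are log2 intensities after RMA (robust multi-array average), and the same gene is compared between arrays. Defb6 read 1.88 and 2.33 on the P4_WT arrays, 6.37 and 7.35 on the P21_WT arrays, and 5.72, 5.07, 6.32 and 7.35 on the P21_KO arrays. All 6 arrays from 21 days lay above both from 4 days, with the lowest of the 6 standing 2.74 above the higher P4_WT value. The wild-type difference was 4.75 ± 0.66 log2 units (standard error, n = 2 and 2), or 27.0-fold as measured, and from 4.26 to 5.25 when 1 array was left out. By rank within an array, Defb6 stood at the 5.60 and 19.9 percentiles of all genes in P4_WT and at 89.2 and 95.3 in P21_WT. The lower quartile of all rows was 2.33 and 2.34 on the P4_WT arrays, so Defb6 read at or below it there. RMA compresses differences near the floor and the table used here gives no detection call, so the fold is that of the measured values and not an exact ratio. Of 40 other beta-defensins measured, 25 were higher and 15 lower at 21 days with a median of 0.04. Among all genes 50.2% were higher at 21 days, and limma called 0.757% higher and 0.852% lower, so the 0 calls among these 40 are near the background. Of the 40, 30 lay below the array median on every array. The genes flanking Defb6 on chromosome 8 were Defb4, at -0.10, and Defb46, at 0.00. Defb29 had the smallest age p of the family and differed by 0.57 (limma adjusted p = 0.234).

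Clca3a2 encodes a secreted chloride channel accessory protein. It read 3.52 and 5.18 in P4_WT, 7.92 and 8.12 in P21_WT, and 7.94, 6.63, 7.60 and 8.05 in P21_KO. The P4_WT arrays were 1.66 apart and the P21_WT arrays 0.20 apart, and the groups did not overlap. The difference was 3.67 ± 0.58, or 12.8-fold as measured. In P4_WT the gene stood at the 52.7 and 74.6 percentiles of all genes, so its lower value was near the middle of the array. The change was 2.84 without P4_WT replicate 1 (7.18-fold) and 4.50 without P4_WT replicate 2 (22.7-fold). The gene lies on chromosome 3 between its close relatives Clca3a1, at 0.31, and Clca3b, at -0.02, and probes of near-identical copies may cross-hybridise, so which copy gave the signal is uncertain. Of the 7 other Clca genes measured, 5 were higher and 2 lower at 21 days, with a median of 0.22 and 0 calls, which is near the background in so few genes, and Clca2 stood at 0.80 (limma adjusted p = 0.348).

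Anxa8, a calcium-dependent phospholipid-binding protein found in stratified epithelia, read 4.71 and 3.49 in P4_WT, 7.41 and 6.77 in P21_WT, and 6.04, 7.09, 6.08 and 7.25 in P21_KO. All 6 arrays from 21 days again lay above both from 4 days. The difference was 2.99 ± 0.53, or 7.96-fold as measured, and it ran from 2.39 without P4_WT replicate 2 to 3.60 without P4_WT replicate 1. In P4_WT the gene stood at the 69.0 and 51.6 percentiles of all genes, so its lower value was near the middle of the array. Of 10 other annexins measured, 4 were higher and 6 lower, with a median of -0.04. Anxa3 was the 1 called, against 0.852% of all genes called lower: it fell by 1.93 ± 0.37 (limma adjusted p = 0.0473), opposite to Anxa8, and the call was kept in 2 of 8 fits that each left out 1 array (adjusted p up to 0.184 over all alternatives).

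Krtdap, a small secreted protein of differentiating keratinocytes, stood high on every array. It read 9.19 and 8.65 in P4_WT, 10.42 and 10.47 in P21_WT, and 10.21, 9.82, 10.48 and 10.93 in P21_KO. It ranked at the 98.5 to 99.9 percentile of genes on the 8 arrays. The age difference was 1.52 ± 0.34, or 2.87-fold.

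Sbsn (suprabasin) and Dmkn (dermokine) are secreted proteins of the upper epidermis. Sbsn read 6.10 and 4.81 in P4_WT, 6.31 and 7.32 in P21_WT, and 6.41, 6.27, 6.83 and 8.00 in P21_KO; the higher P4_WT value lay 0.21 below the lower P21_WT value. Its age difference was 1.36 ± 0.64, or 2.57-fold, and ran from 0.72 without P4_WT replicate 2 to 2.01 without P4_WT replicate 1. Dmkn read 5.99 and 5.50 in P4_WT, 7.19 and 6.70 in P21_WT, and 6.56, 5.86, 6.30 and 8.00 in P21_KO. Here P21_KO replicate 2 lay between the P4_WT values, so the 21-day arrays overlapped those of 4 days. The wild-type difference was 1.20 ± 0.60, or 2.30-fold.

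Krtdap, Sbsn and Dmkn sit side by side on chromosome 7 with 0 coding genes between them, in the order Sbsn, Dmkn, Krtdap. The flanking genes Gapdhs and Ffar2 differed with age by 0.10 and 0.02. After subtracting each gene's own mean, Krtdap and Sbsn differed by a root-mean-square of 0.39 log2 units over the 8 arrays, Krtdap and Dmkn by 0.42, and Sbsn and Dmkn by 0.52, the 3 closest pairs among the 28. Defb6 and Lor were farthest apart, at 2.19. Outside the 8, other genes came closer to each: Mag to Krtdap at 0.23, Skint1 to Sbsn at 0.23 and Krt10 to Dmkn at 0.24. The likeness is thus not particular to these neighbours. These are distances over 8 arrays that share 3 groups, and they are a description.

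Lor (loricrin) and Ivl (involucrin), the cornified envelope proteins, were not higher in P21_WT. Lor read 6.19 and 5.32 in P4_WT, 4.45 and 5.89 in P21_WT, and 4.00, 4.49, 5.06 and 7.02 in P21_KO. The ranges of the groups overlapped in part. Its age difference was -0.59 ± 0.91, and its sign depended on 1 array: 0.13 without P21_WT replicate 1 and -1.31 without P21_WT replicate 2. Ivl read 3.64 and 3.29 in P4_WT, 3.03 and 3.27 in P21_WT, and 3.32, 2.95, 3.48 and 4.21 in P21_KO. Its wild-type arrays did not overlap, with P21_WT below by 0.32 ± 0.36, but the gap between the nearest values was 0.02. Ivl stood at the 39.1 to 64.9 percentile of genes, near the arrays' middle. Lor and Ivl lie on chromosome 3 with 16 coding genes between them.

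**Figure D1:**
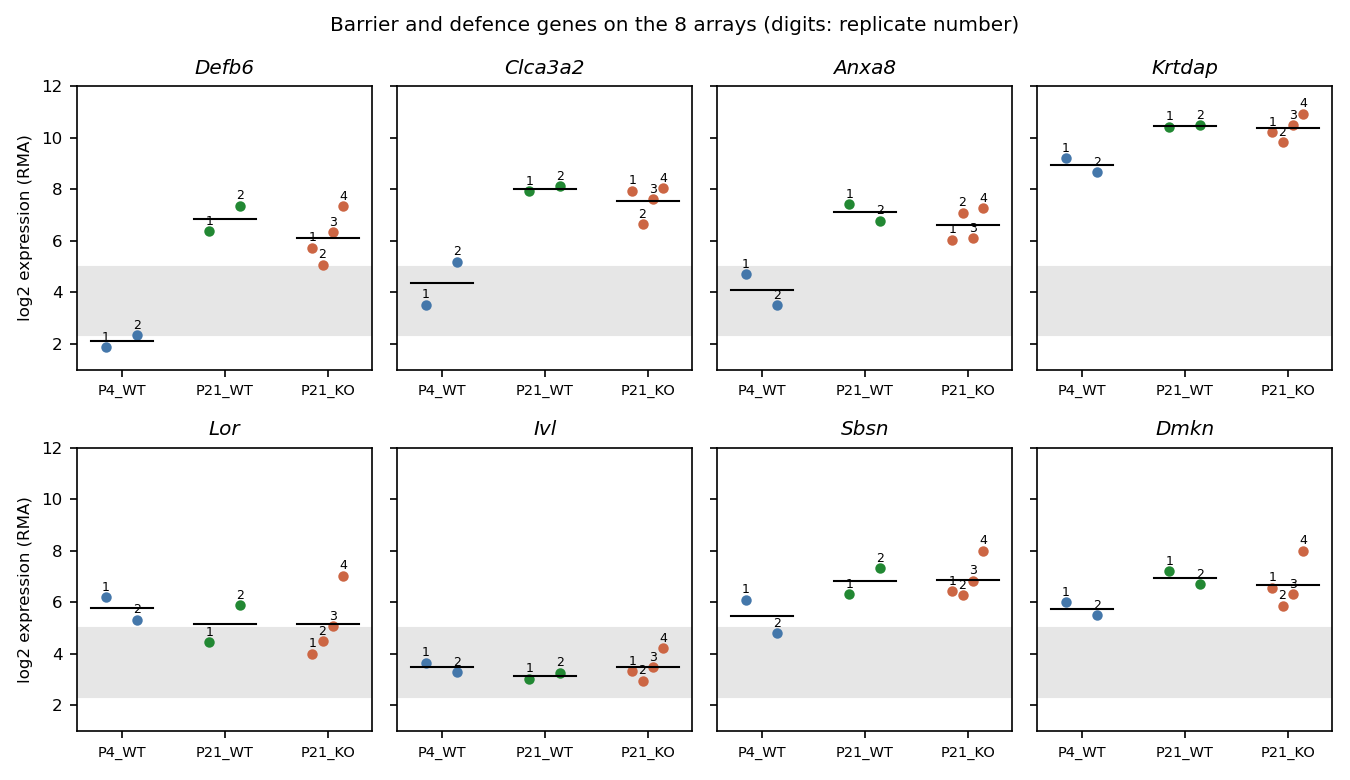
Log2 intensity of each of the 8 genes (vertical axis, RMA values) by group, 1 point per array with its replicate number, black bars at group means, and a grey band from the lowest lower quartile to the highest upper quartile of all rows over the arrays. Defb6 moves from 1.88 and 2.33 in P4_WT to 6.37 and 7.35 in P21_WT, while Lor overlaps between all groups.

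**Figure D2:**
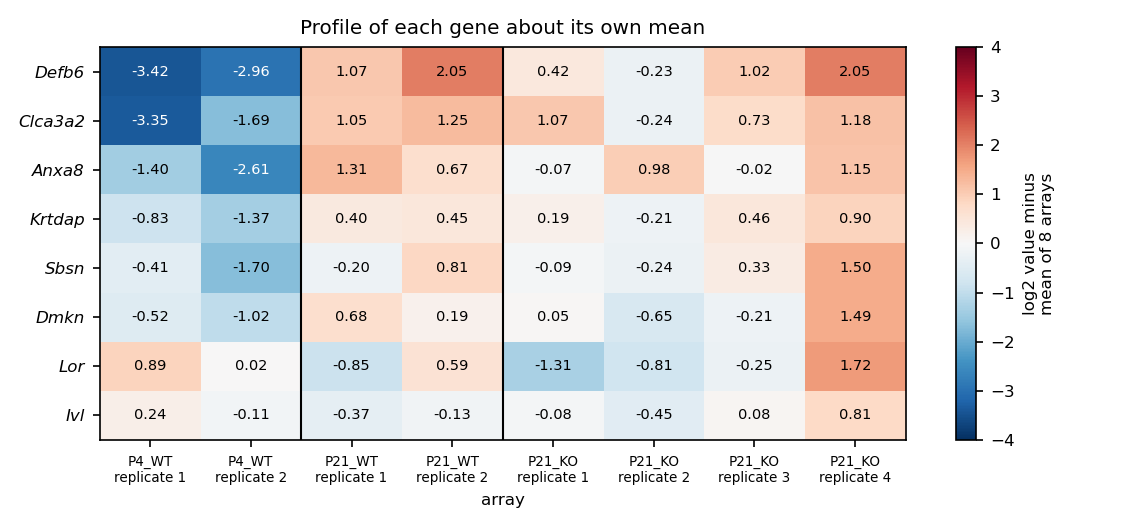
Heat map of the same values after subtracting each gene's mean over the 8 arrays, with genes in rows, arrays in columns and the log2 difference printed in each cell. Defb6 runs from -3.42 to 2.05, and P21_KO replicate 4 is the highest P21_KO array for all 8 genes.

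Of the 8 genes, 6 had a higher mean in P21_WT than in P4_WT, as did 50.2% of all genes, and the same 6 had both P21_WT arrays above both P4_WT arrays, a pattern seen in 21.4% of all genes, and Ivl alone had them below, as did 22.1%. Of the 8, 5 genes (Defb6, Clca3a2, Anxa8, Krtdap and Sbsn) had all 6 arrays from 21 days above both from 4 days, against 9.46% of all genes, and the same 5 had all 4 P21_KO arrays above both P4_WT arrays (14.2%). The choice of the genes used this contrast, so nothing is read from these counts. The P21_KO minus P4_WT differences, which share the P4_WT arrays, were 4.01 for Defb6, 3.21 for Clca3a2, 2.52 for Anxa8, 1.44 for Krtdap, 1.43 for Sbsn, 0.93 for Dmkn, -0.62 for Lor and 0.02 for Ivl.

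Between P21_KO and P21_WT, limma called 0 of the 8 genes. This contrast was not used to choose them, although the P21_WT arrays enter both contrasts with opposite sign. Braf itself read 5.80 and 6.00 in P4_WT, 5.99 and 7.20 in P21_WT, and 6.57, 6.49, 6.30 and 5.66 in P21_KO, a difference of -0.34 ± 0.36 (limma adjusted p = 0.944), and the position of its probes relative to the deleted part was not checked, so it checks nothing about the labels. Defb6 was lower in P21_KO by 0.74 ± 0.57 (95% interval -2.05 to 0.56, limma adjusted p = 0.896, n = 4 and 2), an interval that holds both a fall and a rise. The differences were -0.47 for Clca3a2 (-1.62 to 0.69), -0.48 for Anxa8 (-1.53 to 0.58), -0.27 for Dmkn (-1.46 to 0.92), -0.09 for Krtdap (-0.76 to 0.59), -0.03 for Lor (-1.83 to 1.77), 0.07 for Sbsn (-1.20 to 1.33) and 0.34 for Ivl (-0.38 to 1.06), with limma adjusted p from 0.896 to 1.000 over the 8. Limma called 0% of all 22180 genes in this contrast, and 1447 genes (6.52%) had an unadjusted p under 0.05, among them 0 of the 8. The P21_KO and P21_WT arrays overlapped for all 8 genes, while 15.4% of all genes had groups that did not overlap. The mean was lower in P21_KO for 6 of the 8 genes, against 48.6% of all genes.

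**Figure D3:**
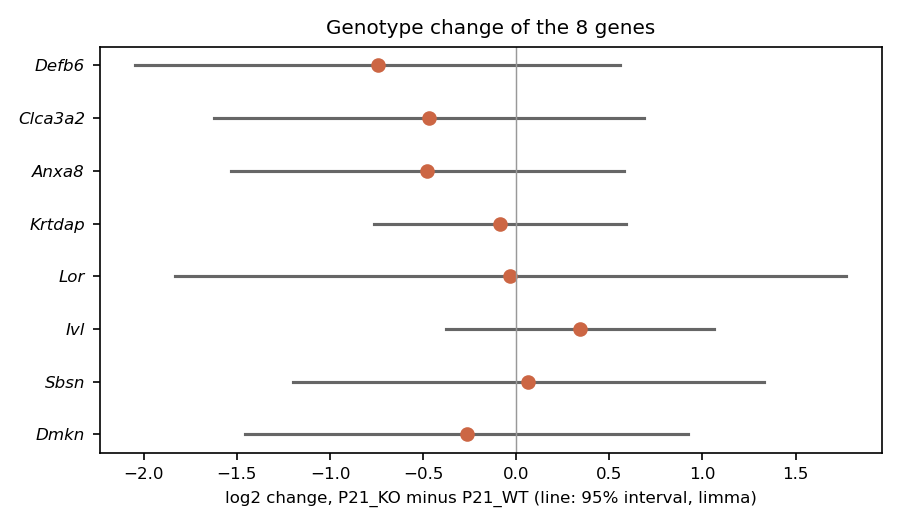
Genotype difference of each gene, P21_KO minus P21_WT in log2 units, as the limma estimate (point) with its 95% interval (line). All 8 intervals include 0, and they reach from 0.68 (Krtdap) to 1.80 (Lor) units to each side.

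Within P21_KO, replicate 4 was the highest array for all 8 genes, as it was for 29.7% of all genes, and it was the highest of all 8 arrays for Krtdap, Lor, Ivl, Sbsn and Dmkn (16.9% of all genes). Replicate 2 was the lowest P21_KO array for 6 of the 8 (23.3%). The mean of 12 suprabasal keratinocyte markers was 6.20 on replicate 4 and 5.49, 5.23 and 5.49 on replicates 1 to 3, with 5.15 and 4.71 in P4_WT and 5.91 and 5.63 in P21_WT. The mean of 12 melanocyte markers was lowest on that same replicate, at 6.09, against 7.48, 7.10 and 6.56 on the other P21_KO arrays, 7.86 and 7.79 in P21_WT, and 9.35 and 9.20 in P4_WT. Without P21_KO replicate 4 the genotype differences were -1.16 for Defb6, -0.63 for Clca3a2, -0.69 for Anxa8, -0.27 for Krtdap, -0.31 for Sbsn, -0.71 for Dmkn, -0.66 for Lor and 0.11 for Ivl. That of Defb6 ran from -1.24 (without P21_WT replicate 1) to -0.25 (without P21_WT replicate 2) when 1 array was left out. The part of cell mixture in these values was not tested. In bulk samples, fewer cells of a type and less RNA per cell cannot be told apart.

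The labelled cell class was checked against its markers. Dct (dopachrome tautomerase, a melanin enzyme) read 8.76 to 11.0 and Sox10, a neural crest regulator, 7.23 to 8.32, at the 94.2 percentile of genes or higher on every array. Of the 12 melanocyte markers, 11 were lower and 1, Sox10, was higher in P21_WT than in P4_WT, with 2 called lower. For this list and those below, the shares of all genes were 50.2% higher, 0.757% called higher and 0.852% called lower. Oca2, a melanosome transporter, fell by 4.70 ± 0.30 (limma adjusted p = 0.000863), a call kept in all 17 alternatives, and Gpr143, a melanosome receptor, fell by 2.71 ± 0.32 (limma adjusted p = 0.00706), a call kept in 15 of 17; both are named because of their values. Tyr (tyrosinase) read 9.59 and 9.44 in P4_WT, 7.88 and 7.27 in P21_WT and 5.02 to 6.36 in P21_KO, and stood as low as the 76.1 percentile of genes. Over the 8 arrays Mitf read 6.46 to 8.19, Pmel 6.31 to 10.8 and Kit 5.86 to 9.40, each lowest in P21_KO. Their lowest percentiles were 90.7, 89.5 and 85.4. Some keratinocyte genes were also high: Krt14 of the basal layer read 8.17 to 9.71 and Krt10 of the suprabasal layers 8.48 to 10.5, at the 97.6 percentile of genes or higher on every array. Others reached lower ranks. Krt1 ranged from the 89.3 to the 97.8 percentile and Itgb4 from 79.2 to 95.4. Col17a1 ranged from 64.8 to 86.7 and Krt77 from 63.5 to 99.1. Basal keratinocyte markers (8 of 10 measured) averaged 6.24 to 6.69 in P4_WT and 7.13 to 7.20 in P21_WT, with 6 of 8 higher at 21 days, and 2 called. These were Col17a1, up by 1.55 ± 0.20 (limma adjusted p = 0.0105), a call lost without P21_WT replicate 2 (adjusted p = 0.0675), and Itgb4, up by 1.11 ± 0.22 (limma adjusted p = 0.0493), a call kept in 0 of 8 fits that each left out 1 array (adjusted p 0.0548 to 0.189). Both are named because of their values. Suprabasal markers were higher for 9 of 12, and Krt77 alone rose past the call, by 3.90 ± 0.58 (limma adjusted p = 0.017), a call lost without any 1 of the 4 wild-type arrays (adjusted p 0.0575 to 0.115). Immune markers (7 of 8 measured) averaged 5.90 and endothelial markers 5.71 on P4_WT replicate 2, but 3.06 and 3.22 on P4_WT replicate 1. P4_WT replicate 2 was the lower P4_WT array for 6 of the 8 genes described, all but Defb6 and Clca3a2. Replicate 1 read above replicate 2 for 48.4% of all genes. The part of immune and endothelial cells in the values of the 8 genes was not tested. Hair shaft markers averaged 5.81 and 4.24 in P4_WT and 2.94 to 3.07 at 21 days, with 12 of 12 lower in P21_WT and 3 called. Schwann cell markers (6 of 9 measured) averaged 7.33 to 7.48 and 8.53 to 8.80, with 6 of 6 higher in P21_WT and 4 called. Not all of these calls were kept when 1 array was left out. Outer root sheath markers averaged 4.78 to 5.63 in the 8 arrays, fibroblast markers 5.95 to 6.90 and sebocyte markers 2.82 to 3.28.

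**Figure D4:**
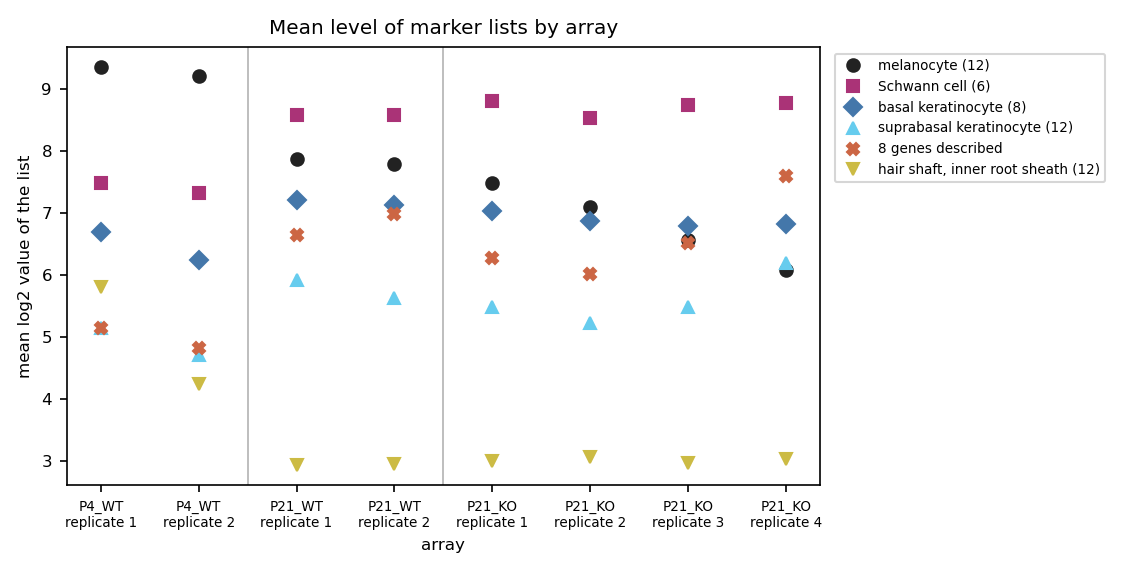
Mean log2 intensity (vertical axis) of 5 lists of cell type markers, with the number of genes in brackets, and of the 8 genes, 1 symbol per list on each array. The melanocyte list falls from 9.35 and 9.20 in P4_WT to 6.09 in P21_KO replicate 4, and the suprabasal list is highest on that array, at 6.20.

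Other genes of the barrier were followed in 6 lists. The lists were written with earlier results of these data known. The cornified envelope list had 21 genes higher and 27 lower of 48 (median -0.02, none called), and 25 lay below the array median on every array. Filaggrin (Flg), the matrix protein of the cornified cell's interior, read 5.79 and 4.08 in P4_WT and 3.06 to 3.41 at 21 days, a difference of -1.79 ± 0.45 (limma adjusted p = 0.108). Periplakin (Ppl), which links the envelope to keratin filaments, differed by 0.95 ± 0.26 (limma adjusted p = 0.141). The lipid barrier list had 21 higher and 11 lower of 32 (median 0.13). In it Fa2h, which makes 2-hydroxylated sphingolipids, rose by 1.83 ± 0.19 or 3.55-fold (limma adjusted p = 0.00394), a call kept in all 8 fits that left out 1 array and lost with the 2 wild-type groups alone (adjusted p = 0.0636). Schwann cells also make such lipids, and the Schwann cell markers were higher at 21 days for 6 of 6, with 4 called. The part of Schwann cells in the Fa2h value was not tested. Smpd1, an acid sphingomyelinase, fell by 2.18 ± 0.42 (limma adjusted p = 0.0493), a call kept in 1 of those 8 fits.

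Protease and inhibitor genes split 17 higher and 15 lower of 32 (median 0.02, none called). Cst6, a cystatin that inhibits cornification proteases, read 5.58 and 4.84 in P4_WT, 7.98 and 6.24 in P21_WT and 5.19 to 5.66 in P21_KO, a difference with age of 1.90 ± 0.50 (limma adjusted p = 0.13) and with genotype of -1.73 ± 0.43 (limma adjusted p = 0.565). Junction genes were higher for 19 of 26 (median 0.31), with Tjp1, a tight junction scaffold, rising by 1.08 ± 0.20 (limma adjusted p = 0.0387), a call kept in 2 of the 8 fits. Antimicrobial genes split 19 and 17 of 36 (median 0.02, none called) and 18 lay below the array median on every array. S100a8, an antimicrobial calcium-binding protein of neutrophils and stressed keratinocytes, read 6.76 and 9.50 in P4_WT, 5.74 and 5.70 in P21_WT, and 5.03, 5.10, 3.15 and 2.60 in P21_KO, a difference with age of -2.41 ± 1.03 (limma adjusted p = 0.385). Its highest value lay on the array with the high immune markers, and the part of these cells in it was not tested. Differentiation regulators split 17 and 13 of 30 (median 0.03, none called), and Klf4, a barrier transcription factor, stood at 1.04 (limma adjusted p = 0.153). Over all genes the median was 0.00, with 0.757% called higher and 0.852% called lower. In the genotype comparison 0 genes of the 6 lists were called. The smallest p values there were those of Gja1, a gap junction protein, and Abhd5, a lipase activator, at -1.47 ± 0.32 and -0.82 ± 0.18, each with limma adjusted p = 0.481.

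**Figure D5:**
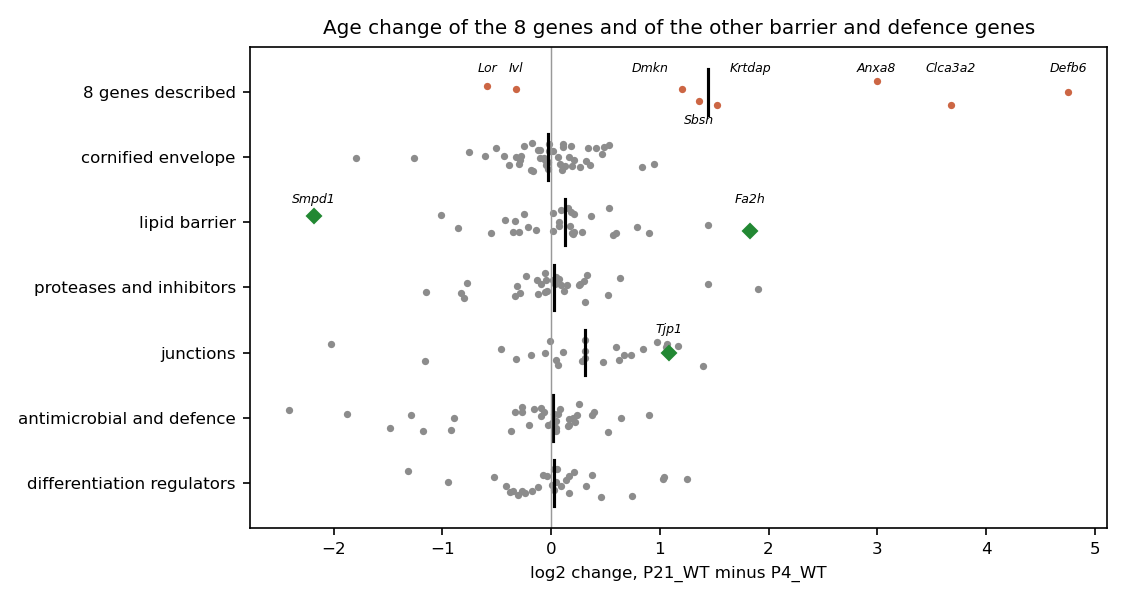
Difference with age, P21_WT minus P4_WT in log2 units, for the 8 genes (orange) and 6 lists of other barrier and defence genes (grey, 1 point per gene), with medians as black bars and limma calls as green diamonds. The list medians lie between -0.02 (cornified envelope) and 0.31 (junctions), and that of the 8 genes, chosen by this contrast, at 1.44.

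Genes of like pattern were searched for the 7 of the 8 that spanned at least 2 log2 units, over the 8 arrays after centring. Krt77 came closest to Defb6, with a root-mean-square difference of 0.60, followed by Clca3a2 at 0.67 and Slc36a2 at 0.87. Closest to Clca3a2 was Dusp15 at 0.50, then Krt77 at 0.56 and Septin3 at 0.60. Anxa8 was nearest to Chp2 at 0.52, Fam83f at 0.55 and Mal, a myelin and lymphocyte protein, at 0.56. Krtdap had Mag, Mapre3 and Sertad1 at 0.23 each. Sbsn lay nearest to Skint1 at 0.23, Ly6d at 0.30 and Tspan17 at 0.34, and Dmkn to Krt10 at 0.24, Calm4 at 0.28 and Krt1 at 0.31. Lor had Arpc5l at 0.43, Ndufa4l2 at 0.49 and Cmtm8 at 0.52. These distances are a description over 8 arrays of 3 groups.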

How the data were processed

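Cells were profiled on 8 mouse gene arrays in 3 groups of 2, 2 and 4. The deposited values are log2 intensities produced by Affymetrix Expression Console using RMA, as the submitters' processing notes list (per the labels), with versions not given in the sources used here. RMA subtracts background, equalises the arrays' distributions and summarises probes, which compresses differences near the floor. The values ran from 0.913 to 12.2. Of 41345 rows, 23521 have 1 gene symbol, 1814 several and 16010 none here; the row with the highest mean was kept, leaving 22180 genes. Krt5 had no single-symbol row and is not analysed here, and 1 gene is not reported here. In R 4.3.3, limma 3.58.1 fitted a mean for each of the 3 groups over the 8 arrays, with 5 residual degrees of freedom and Benjamini-Hochberg adjustment over all genes, called under 0.05, two-sided. It was tested on simulated data. The number of arrays limits the precision. Arrays of a group correlated at 0.954 to 0.974. The main fit did not pair arrays across groups by replicate number. Named genes were the 8, the smallest p in each list, fixed markers and the 3 nearest patterns. The genes and lists were chosen with earlier results of these data known. The 17 alternatives tried covered left-out arrays, blocks, scaling, weights and filters.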

Additional observations from a re-analysis of the deposited data

Results flagged for a closer look

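In the 4 P21_KO arrays, 4 of 60 genes tested had 1 array standing apart by Dixon's criterion for 4 samples, and chance alone gives about 5% of groups such a value. Blmh, a protease of filaggrin breakdown, read 6.32 on replicate 2 against a nearest value of 6.01. Mag and Sertad1, 2 of the genes nearest to Krtdap, read 6.90 and 5.05 on replicate 2, against nearest values of 7.48 and 5.54. Ndufa4l2, near to Lor in pattern, read 5.86 on replicate 4 against 4.23. The mean of the protease list was also highest on replicate 4, at 3.99 against 3.63. None of the 8 barrier and defence genes had an array beyond the limit.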

How the results depend on the processing

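The age comparison called 357 genes and the count ran from 119 to 338 when 1 array was left out, with the lowest without P21_WT replicate 2 (121 without replicate 1), and was 49 with the arrays of the 2 groups alone and 45 with a replicate block. The genotype comparison called 0 genes, and 0 to 15 with 1 array left out (15 without P21_WT replicate 2). For Clca3a2 the change with age ran from 2.84 to 4.50 with 1 array left out. The number of the 8 genes with a lower mean in P21_KO was 6. It ran from 3 (without P21_KO replicate 2) to 7 with 1 array left out, and was 8 with a replicate block. Replicate numbers 3 and 4 occur only in P21_KO, so with the block the genotype differences rest on P21_KO replicates 1 and 2 alone. The block thus sets aside P21_KO replicate 4, the highest P21_KO array for all 8 genes. Small genotype differences changed sign: with 1 array left out Dmkn ran from -0.71 to 0.0067, Krtdap from -0.27 to 0.10, Lor from -0.75 to 0.69 and Sbsn from -0.44 to 0.57, and with the replicate block Ivl was -0.0092 and Sbsn -0.47, with array weights Sbsn -0.050. Defb6 was -1.46 with the block against -0.74 without. Of the calls named in the text, the block lost Fa2h (limma adjusted p = 0.0583), Gpr143 (0.0642), Smpd1 (0.176) and Tjp1 (0.115). It also lost Anxa3 (limma adjusted p = 0.136), Col17a1 (0.0702) and Itgb4 (0.142). Replicate numbers come from the labels alone, and deviations of like-numbered arrays correlated at -0.0099 (P4_WT with P21_WT), -0.037 and -0.010. Among lists, the median of the cornified envelope ran from -0.064 to 0.13 and of the regulators from -0.076 to 0.20 with 1 array left out, and with only genes above the median mean junctions gave 0.68 and the lipid barrier -0.14. The cause was not tested. Signal near background limits Defb6 at 4 days.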
